A study of Mus musculus with 2 samples.

Results

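A set of 10 genes that mark resident tissue macrophages was followed through the single cells of the mouse aortic arch. They were found by symbol in the gene lists of both libraries, which hold 31053 genes, and each symbol matched 1 row in each list. Lyve1, Folr2, Cd163, Mrc1, Stab1, Timd4 and Cd209f code for proteins of the cell surface, Cbr2 for an enzyme, and Pf4 and Fcna for secreted proteins. The genes were named with earlier results of these data known, so their levels are given as a description.

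Both libraries came from male C57BL/6 mice that lacked Apoe, a loss that raises plasma cholesterol and that the control mice carried too. The normal diet (ND) mice ate chow and the high fat diet (HFD) mice a diet rich in fat and cholesterol, for 12 weeks until 16 weeks of age. The aortic arches of 2 mice per diet were dissociated with enzymes of a lung kit and pooled before the library was made, so there was 1 library per diet. No difference between the diets can be told apart from a difference between the pools or the libraries, and no test between the diets was possible.

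Resident macrophages of arteries lie mainly in the outer coat of the vessel, and many of them are maintained in the tissue for long periods with little input from blood monocytes. Their surface carries receptors that take up hyaluronan, glycoproteins, haemoglobin bound to haptoglobin and the remains of dying cells. In atherosclerotic vessels a different kind of macrophage, the foam cell, takes up lipoprotein lipid inside the plaque, and Trem2, Gpnmb and Spp1 are among its known marker genes.

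The filter of the study (at least 200 genes, at least 200 unique molecular identifiers or UMIs, and at most 30% of UMIs from mitochondrial genes) left 5416 of 10234 barcodes with ND and 2739 of 14225 with HFD. A UMI marks 1 captured RNA molecule. The kept ND cells held 27137322 UMIs, with a median of 3732.5 per cell, and the kept HFD cells held 17191279, with a median of 5336. The libraries shared 39 barcodes, 1 of which was kept in both, and no macrophage barcode was shared. Levels are UMIs of the gene per 1000000 UMIs of the same cells (CPM). Since the tags come from the ends of transcripts and were not scaled by length, levels are compared between cells and not between genes. Intervals in parentheses are exact 95% intervals and cover counting error only, not the spread between mice. Those of levels and ratios treat UMIs as independent and leave out the spread between cells too.

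Cells were assigned to a class by UMIs of marker genes, none of them among the 10 genes. Macrophages, gated by C1qa, C1qb, C1qc, Adgre1 and Fcgr1, numbered 353 with ND and 501 with HFD, 6.52% and 18.3% of kept cells. Outside the gate markers the macrophages were led by Pf4, Ccl8 and Folr2 in the ND library, and by Ccl8, Spp1, Gpnmb and Trem2 in the HFD library. Macrophages were then divided by F13a1, Gas6, Ltc4s, Ednrb, Fxyd2 and Cd209g into resident-type cells and by Trem2, Gpnmb, Spp1, Mmp12 and Atp6v0d2 into foam-type cells, each needing at least 2 UMIs of its list and more than of the other. Resident-type cells made up 265 of 353 ND macrophages (75.1%, 70.2 to 79.5) and 262 of 501 HFD macrophages (52.3%, 47.8 to 56.7). Foam-type cells made up 46 (13.03%, 9.70 to 17.0) and 193 (38.5%, 34.2 to 42.9), and the remaining 42 and 46 cells reached neither list or tied. Apoe itself was counted at 42.4 CPM in ND and 42.6 CPM in HFD resident-type macrophages. Both diets carry the deletion, and a tag at the transcript end may lie outside the deleted part, so this count checks neither label.

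All 10 genes are protein coding in the GENCODE annotation of GRCm38, the assembly also called mm10. RefSeq held promoter entries for 9 of them, and Lyve1 had none. The 250 bases before the RefSeq start are printed for 4 genes, with the letters GAGGAA or TTCCTC (the core that PU.1, a transcription factor of macrophages, is known to bind, read on either strand) and TGCTGA or TCAGCA (the core that MAF factors are known to bind) in capitals. Pf4 and Stab1 are shown because their level within resident-type macrophages was lower in the HFD library, and Mrc1 and Cbr2 because theirs was not.
Pf4, chr5:90772185-90772434, plus strand: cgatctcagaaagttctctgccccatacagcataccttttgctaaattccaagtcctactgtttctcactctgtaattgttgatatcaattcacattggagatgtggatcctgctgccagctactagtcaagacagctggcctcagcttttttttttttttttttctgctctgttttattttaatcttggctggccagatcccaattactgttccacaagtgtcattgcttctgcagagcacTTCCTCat
Stab1, chr14:31168642-31168891, minus strand: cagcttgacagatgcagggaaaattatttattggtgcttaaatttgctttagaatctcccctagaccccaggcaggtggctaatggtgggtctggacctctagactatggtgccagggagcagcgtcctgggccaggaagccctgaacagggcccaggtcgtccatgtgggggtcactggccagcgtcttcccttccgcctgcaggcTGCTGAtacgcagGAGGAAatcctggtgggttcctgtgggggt
Mrc1, chr2:14229164-14229413, plus strand: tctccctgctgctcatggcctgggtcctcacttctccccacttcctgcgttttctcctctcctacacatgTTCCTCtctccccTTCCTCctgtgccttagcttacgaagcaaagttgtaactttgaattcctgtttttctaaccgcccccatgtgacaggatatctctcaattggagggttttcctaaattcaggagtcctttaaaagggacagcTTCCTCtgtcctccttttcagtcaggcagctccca
Cbr2, chr11:120732022-120732271, minus strand: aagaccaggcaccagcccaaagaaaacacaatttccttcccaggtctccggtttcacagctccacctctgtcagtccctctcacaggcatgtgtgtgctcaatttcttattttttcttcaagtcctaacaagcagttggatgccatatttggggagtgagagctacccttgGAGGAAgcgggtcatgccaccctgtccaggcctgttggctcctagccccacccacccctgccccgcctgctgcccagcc
The first motif stood in the promoters of 5 of the 9 genes (Cbr2, Fcna, Mrc1, Pf4 and Stab1) and in 23.3% of all 32851 promoters. The second stood in those of 4 (Fcna, Folr2, Stab1 and Timd4) and in 16.1% of all promoters. Both groups of printed genes held the first motif, Mrc1 at 3 places. These are matches of letters and say nothing about binding.

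Across the whole libraries the 10 genes were counted mostly in macrophages, except Stab1 and, with ND, Cbr2. Macrophages held 88.1% of Folr2, 85.3% of Cd163, 83.9% of Mrc1, 80.8% of Timd4, 87.5% of Pf4, 84.3% of Cd209f and 91.1% of Fcna UMIs in the ND library. The corresponding shares in the HFD library lay between 82.3% for Pf4 and 91.2% for Fcna. Lyve1, Stab1 and Cbr2 were also carried by other cell types, with 59.6%, 20.9% and 12.96% of their UMIs in ND macrophages and 83.6%, 36.1% and 87.3% in HFD macrophages. Barcodes that mixed the markers of several classes, 565 with ND and 338 with HFD, held 9.64% and 12.7% of the UMIs of the 10 genes together and were left out of every class.

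**Figure D1:**
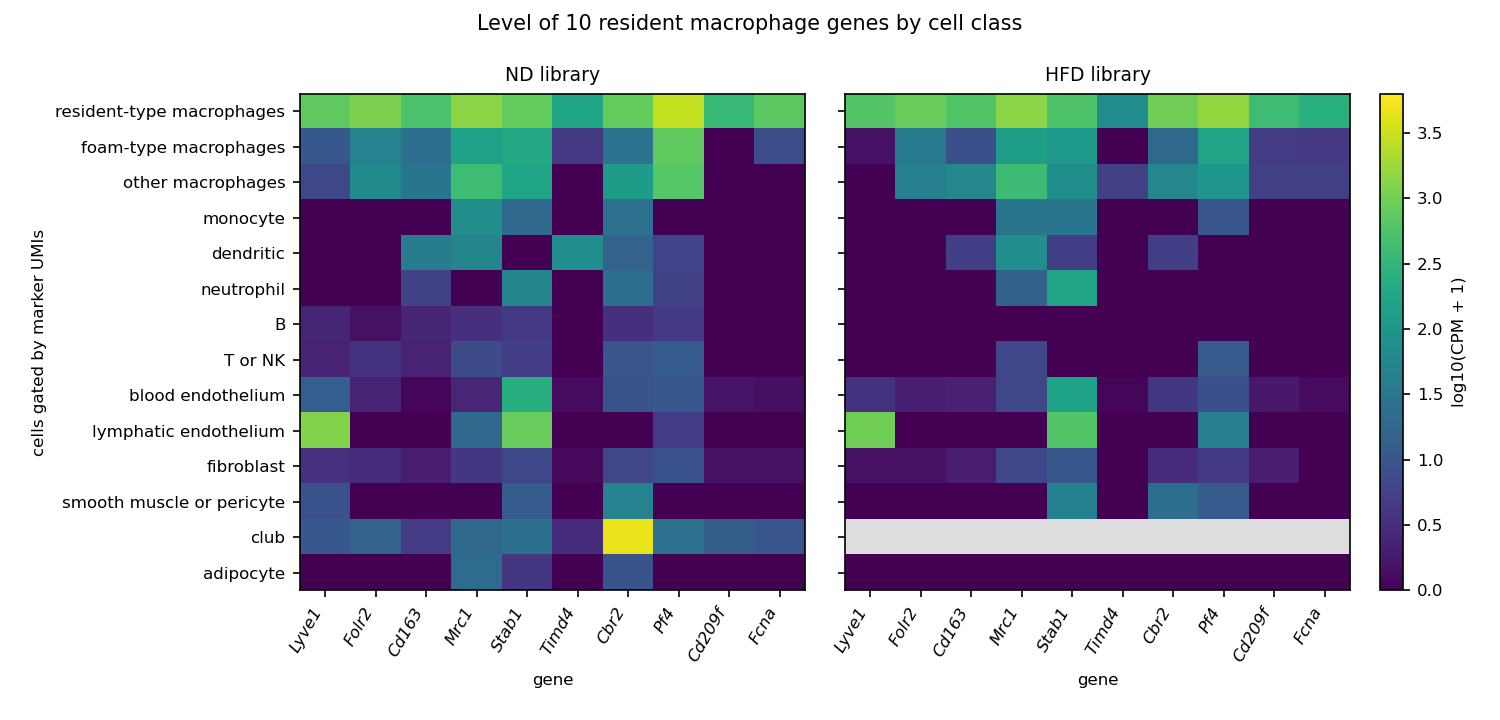
Level of each gene (columns) in each class of cells (rows), as log10(CPM + 1), in the ND library on the left and the HFD library on the right. The row of resident-type macrophages is filled in both libraries, Lyve1 and Stab1 are also high in lymphatic endothelium and Cbr2 in ND club cells, and the grey row marks that the HFD library had no club cell.

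Cells that should lack these genes gave the background of free RNA. In 499 ND B cells, with a median of 3469 UMIs, the most frequent of the genes were Pf4 and Stab1, each counted in 1.40% of cells, and Timd4, Cd209f and Fcna were not counted. In 434 HFD fibroblasts, with a median of 4390 UMIs, Pf4 was counted in 1.61% and Stab1 in 3.69% of cells. Among resident-type macrophages Pf4 was counted in 91.7% of ND and 85.1% of HFD cells, and Cd209f, one of the rarest, in 29.4% and 34.7%. The shares in macrophages therefore stood far above those of the cells used as background.

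Among the surface receptors, Lyve1 codes for a receptor of hyaluronan, a long sugar chain of the matrix (chr7:110850607-110863239, minus strand). It stood at 734 CPM (688 to 782) in ND and 605 CPM (566 to 646) in HFD resident-type cells. In foam-type cells it was counted as 3 UMIs in 46 ND cells and 1 UMI in 193 HFD cells, or 10.2 CPM (2.10 to 29.8) and 0.542 CPM (0.0137 to 3.02). Lyve1 was thus nearly restricted to resident-type cells among macrophages, since the other macrophages held 1 UMI with ND and 0 with HFD.

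Folr2 codes for a folate receptor that is anchored in the membrane by a lipid (chr7:101839988-101857194, minus strand). Its level was 1134 CPM (1077 to 1193) in ND and 860.1 CPM (813 to 909) in HFD resident-type cells, against 47.6 CPM (26.0 to 79.9) and 36.3 CPM (28.1 to 46.1) in foam-type cells. It was counted in 83.8% of ND and 75.6% of HFD resident-type cells, against 8.70% and 14.5% of foam-type cells. Of the 14 Folr2 UMIs in ND foam-type cells 10 lay in 1 cell, so the ND level there rests mostly on that cell.

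Cd163 codes for the receptor of haemoglobin bound to haptoglobin (chr6:124304656-124330527, plus strand). Its level was 536 CPM (497 to 577) in ND and 592 CPM (554 to 633) in HFD resident-type cells, and 23.8 CPM (9.57 to 49.0) and 7.59 CPM (4.15 to 12.7) in foam-type cells. It was counted in 57.7% of ND and 52.3% of HFD resident-type cells, so a large part of the subset had none at this depth.

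Mrc1 codes for the mannose receptor, which binds the sugars of glycoproteins (chr2:14229392-14332057, plus strand). It was the most widespread of the 10 genes, counted in 96.2% of resident-type cells of either library, at 1363 CPM (1299.9 to 1428) in ND and 1380.4 CPM (1321 to 1442) in HFD cells. Foam-type cells had 149.6 CPM (109 to 201) and 130.1 CPM (114 to 148), and the macrophages of neither list 423 CPM (332 to 530.5) and 402 CPM (325 to 493). Mrc1 was also counted in dendritic cells, at 53.0 CPM (26.5 to 94.8) in 28 ND and 74.4 CPM (44.1 to 118) in 39 HFD cells.

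Stab1 codes for stabilin-1, a scavenger receptor (chr14:31139013-31168641, minus strand). It stood at 788 CPM (741 to 838) in ND and 562 CPM (524 to 601) in HFD resident-type cells. In foam-type cells it was 194 CPM (147 to 251) and 112 CPM (97.4 to 129), the smallest gap between the subsets among the receptors.

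Timd4 codes for a receptor of phosphatidylserine, a lipid shown by dying cells (chr11:46810800-46844332, plus strand). It was the member with the fewest UMIs, 222 in ND and 101 in HFD resident-type cells, or 171 CPM (149 to 195) and 68.3 CPM (55.7 to 83.0). Foam-type cells held 1 UMI in the ND library and 0 in 193 HFD cells, where 0 allows up to 1.63 CPM by the floor of 3 UMIs. A few dendritic cells carried it too, with 15 UMIs (72.3 CPM) in 5 of 28 ND cells and 0 UMIs in 39 HFD cells.

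Cd209f codes for a C-type lectin of the family of DC-SIGN (chr8:4102787-4105835, minus strand). Its level was 359.9 CPM (328 to 394) in ND and 411 CPM (379 to 445) in HFD resident-type cells, carried by 78 of 265 and 91 of 262 cells. Foam-type cells held 0 UMIs with ND and 7 with HFD, so that, against the floor of 3 UMIs, the level was at least 35.3-fold higher in resident-type than in foam-type cells of the ND library. The exact 95% interval was wider and allowed a log2 ratio of foam-type to resident-type of up to −4.84. In the HFD library the level was 108-fold higher in resident-type cells, a log2 ratio of foam-type to resident-type of −6.76 (−8.08 to −5.71). That value rests on 7 foam-type UMIs in 2 cells, 6 of them in 1 cell. Cd209f lies in a cluster of closely related lectin genes, and how tags shared with a relative were counted was not tested.

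Cbr2 codes for a carbonyl reductase of mitochondria (chr11:120729489-120732114, minus strand). It stood at 805 CPM (757 to 855) in ND and 939.9 CPM (891 to 991) in HFD resident-type cells, and at 27.2 CPM (11.7 to 53.6) and 17.3 CPM (11.9 to 24.5) in foam-type cells. It was counted in 83.0% of ND and 82.4% of HFD resident-type cells.

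Pf4 codes for the chemokine CXCL4, best known from the granules of platelets (chr5:90772435-90773383, plus strand). Its level was 2840.3 CPM (2749 to 2933) in ND and 1535 CPM (1472 to 1599) in HFD resident-type cells. Foam-type cells had 735 CPM (639.9 to 839) and 165 CPM (147 to 185). A single foam-type cell held 79 of the 216 ND UMIs and another held 53 of the 305 HFD UMIs, and without them the levels were 489.9 and 137 CPM. No cell was gated as a platelet, and the 6 platelet markers summed to 4 UMIs in ND and 3 UMIs in HFD resident-type cells, with Gp9, Gp1bb and Tubb1 at 0 in both.

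Fcna codes for ficolin A, a secreted lectin that can start the lectin pathway of complement (chr2:25624666-25628030, minus strand). It stood at 698 CPM (654 to 745) in ND and 254 CPM (229 to 281) in HFD resident-type cells, and at 6.80 CPM (0.824 to 24.6) and 3.25 CPM (1.19 to 7.08) in foam-type cells. Its UMIs were spread very unevenly over the ND cells, as described further on. Of its known partners and relatives, Fcnb, Masp1 and Masp2 had 0 UMIs in resident-type cells of both libraries.

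**Figure D2:**
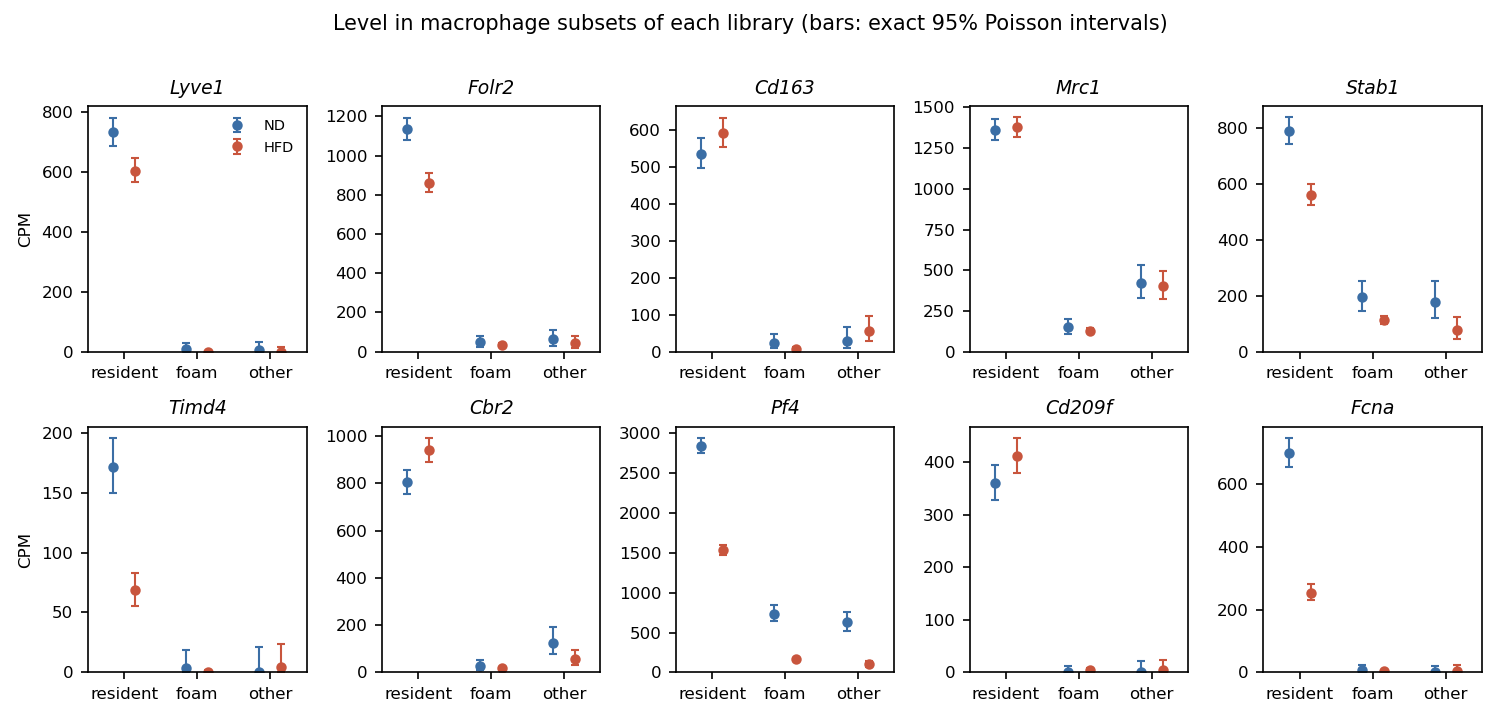
Level (CPM) of each gene in resident-type, foam-type and other macrophages of the ND (blue) and HFD (red) libraries, with exact 95% Poisson intervals for counting error. All 10 genes were highest in resident-type cells of both libraries. Within these cells the intervals of the libraries do not overlap for Pf4, Timd4, Fcna, Stab1, Folr2 and Lyve1, with ND the higher. Without 7 ND cells Fcna stood at 303 CPM in ND against 254 CPM in HFD cells. Those of Cbr2 do not overlap either, with HFD the higher, and the libraries lie close together for Mrc1 and Cd163.

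The comparison of the subsets asked how sharply the 10 genes separate resident-type from foam-type cells within a library, where the diet is the same. All 10 genes were more than 2-fold lower in foam-type than in resident-type cells in the ND library, where 19.7% of the 6777 genes with at least 20 UMIs were, and in the HFD library, where 11.7% of 8400 genes were. Their median log2 ratio of foam-type to resident-type was −4.73 with ND and −5.58 with HFD, against −0.21 and −0.06 over all genes, a gene at 0 being placed at the floor of 3 UMIs. Stab1, Pf4 and Mrc1 had the smallest differences in both libraries, with log2 ratios of −2.02, −1.95 and −3.19 with ND and −2.32, −3.21 and −3.41 with HFD. Lyve1 lay at −6.17 (−8.45 to −4.62) with ND and −10.12 (−15.43 to −7.64) with HFD, values that rest on 3 and 1 UMIs in foam-type cells. Summed over the 10 genes the ratio was −2.98 (−3.13 to −2.82) with ND and −3.92 (−4.02 to −3.82) with HFD. The lists that defined the subsets were chosen with earlier results of these data known, so the separation describes these cells and is not independent evidence.

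Lyve1 and Stab1 were shared with endothelium. Lymphatic endothelial cells, gated by Prox1, Ccl21a, Mmrn1, Reln and Flt4 inside the endothelium, numbered 32 with ND and 13 with HFD, and Ccl21a and Mmrn1 led them in both. Lyve1 stood at 1199 CPM (1074 to 1334) in ND and 938 CPM (729.9 to 1187) in HFD lymphatic cells. Summed over all lymphatic cells, these levels were above those in resident-type macrophages of the same library. Lyve1 was counted in 23 of 32 ND cells (71.9%, 53.3 to 86.3) and in 5 of 13 HFD cells (38.5%, 13.9 to 68.4), and 1 HFD cell held 35 of the 69 UMIs. Without that cell Lyve1 stood at 489 CPM (339 to 684) in HFD lymphatic cells, an interval that held its level in resident-type macrophages, and without the highest ND cell, with 69 UMIs, at 1037 CPM (917 to 1169) in ND ones.

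In blood endothelium Lyve1 was at 12.8 CPM (10.8 to 15.1) with ND and 2.60 CPM (1.56 to 4.06) with HFD. The log2 ratio of lymphatic to blood endothelium was 6.55 (6.26 to 6.84) with ND and 8.50 (7.75 to 9.31) with HFD. The Lyve1 UMIs of ND blood endothelium were concentrated in few cells. Of its 2259 cells 29 held any, and 17 cells with at least 3 UMIs held 125 of the 141. All 17 also had UMIs of Vwf, the clotting factor of endothelium, and of Cytl1, and 13 had Stab1, while none had Mmrn1, Ccl21a or Prox1. Of all 2259 cells 14.5% had UMIs of Vwf, 9.38% of Cytl1 and 54.1% of Stab1, and 0.0443%, 0.487% and 0.885% of Mmrn1, Ccl21a and Prox1. These last 3 are also markers of the lymphatic gate, which moves endothelial cells that pass it out of blood endothelium. Their absence from 17 cells therefore says little. In HFD blood endothelium 2 cells reached 3 UMIs.

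Stab1 had more UMIs in blood endothelium than in macrophages, 2733 against 1111 with ND and 1181 against 1055 with HFD. It was counted in 1223 of 2259 ND cells (54.1%, 52.1 to 56.2) and 567 of 1194 HFD cells (47.5%, 44.6 to 50.4). Of the endothelial cells those of blood vessels had the lower level, at 249 CPM (239 to 258) with ND and 162 CPM (152 to 171) with HFD, and lymphatic cells the higher, at 833 CPM (730.3 to 947) and 585 CPM (423 to 787). Lymphatic cells and resident-type macrophages had overlapping intervals for Stab1 in both libraries, and blood endothelium lay below both. The other receptors of the set were low in endothelium, with Folr2 at 1.27 and Cd163 at 0.182 CPM in ND blood endothelium and 0 UMIs of either gene in lymphatic cells of both libraries. Mrc1 was counted in 5 of 32 ND lymphatic cells (17.7 CPM) and in 0 of 13 HFD ones, and stood at 1.55 CPM in ND and 5.47 CPM in HFD blood endothelium.

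Cbr2 had a separate source that was present in 1 library only. In 84 ND club cells, secretory cells of the airway led by Scgb1a1 and Scgb3a2, it stood at 4945 CPM (4828 to 5063), counted in 69 cells with up to 366 UMIs in one. These cells held 6805 of the 8290 Cbr2 UMIs of the ND library, or 82.1%, and the HFD library had no club cell. Club cell RNA was also counted in ND macrophages, which held 247 UMIs of Scgb1a1 (139.8 CPM) against 4 in HFD macrophages (1.13 CPM). Club cells had 2.54 Cbr2 UMIs per 100 of Scgb1a1, and at that ratio the Scgb1a1 of ND macrophages corresponds to 3.55 of the 608 CPM of Cbr2 in ND macrophages. The estimate is rough. In ND blood endothelium it gave 3.29 CPM against 8.64 counted, and in T or NK cells 4.03 against 9.12. In fibroblasts it gave 2.97 against 5.47, and in B cells 2.82 against 2.42. Over the whole library the Cbr2 level was 305 CPM in ND and 95.5 CPM in HFD cells, an order opposite to that within resident-type macrophages.

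**Figure D3:**
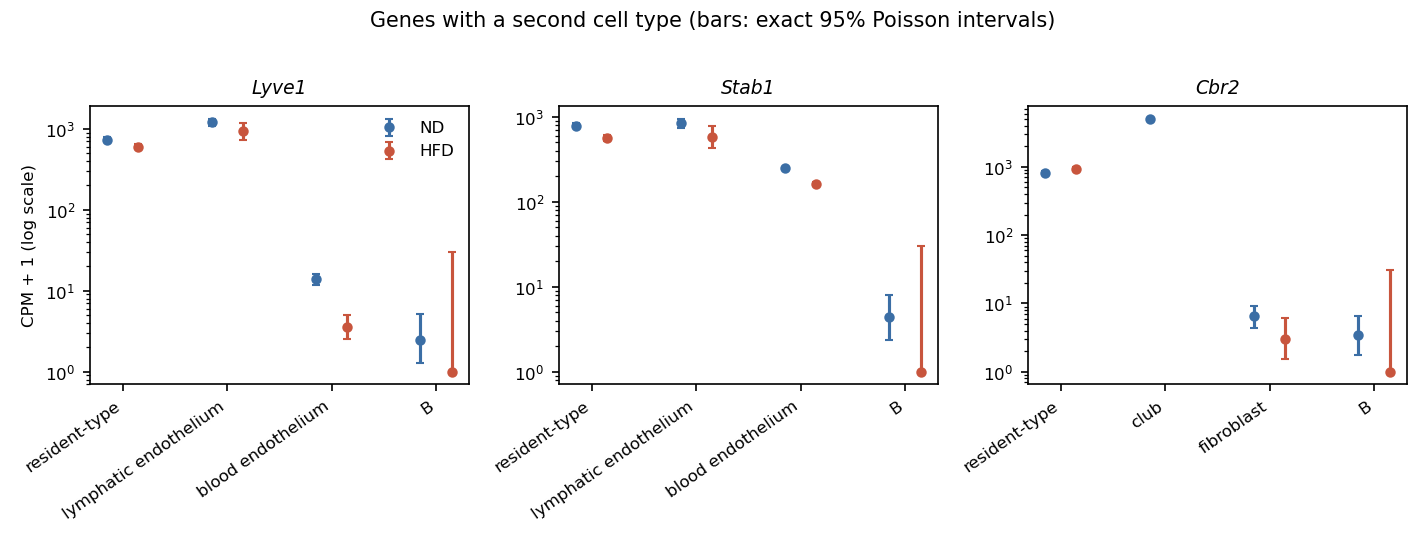
Level of Lyve1, Stab1 and Cbr2, as CPM + 1 on a log scale, in resident-type macrophages, in the other cell types that carry them and in B cells as background, for the ND (blue) and HFD (red) libraries with exact 95% Poisson intervals. Lyve1 was higher in lymphatic endothelium than in resident-type macrophages (in HFD cells not without 1 cell, at 489 CPM), Stab1 had overlapping intervals there, only Stab1 was above 100 CPM in blood endothelium, and Cbr2 reached 4945 CPM in ND club cells while the HFD library had none.

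The main comparison of the study was between the diets. Over all macrophages each of the 10 genes was lower in the HFD library, and together they went from 7268 CPM (7142 to 7394) to 3293 CPM (3234 to 3353), a log2 ratio of −1.14 (−1.18 to −1.11). Of the 10 genes 6 were more than 2-fold lower (Lyve1, Folr2, Stab1, Timd4, Pf4 and Fcna) and the others were 1.51-fold (Cbr2) to 1.60-fold (Mrc1) lower. With every cell given the same weight Lyve1, Folr2 and Stab1 were no longer past this limit, at −0.81, −0.95 and −0.88. Among all 9497 genes with at least 20 UMIs, 7.35% were more than 2-fold lower, and the median log2 ratio was −0.11 against −1.09 for the 10 genes.

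The mix of subsets and the levels within subsets differed by unequal amounts from gene to gene. Resident-type cells supplied 73.4% of macrophage UMIs with ND and 41.6% with HFD. With the ND levels of each subset and the HFD mix, the 10 genes would have summed to 4636 CPM, and with the ND mix and the HFD levels to 5447 CPM, against 7268 and 3293 CPM measured. Mrc1 would have stood at 672 CPM with the HFD mix alone, against 668 CPM measured in the HFD library. Cd163, Cbr2 and Cd209f would have stood at 237, 357 and 149.7 CPM with the HFD mix alone, below the 254, 403 and 173 CPM measured. For Fcna the order was the other way, with 294 CPM from the HFD mix alone, 188 CPM from the HFD levels alone and 108 CPM measured, and Pf4 and Timd4 had the same order, as did Stab1 by a small margin, at 440.0 CPM from the HFD mix and 439 CPM from the HFD levels. The order of Fcna rests on 7 ND cells described further on, and without them it turned, with 129.5 CPM from the HFD mix alone and 185 CPM from the HFD levels alone.

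Within resident-type macrophages the members therefore divided. Pf4 went from 2840.3 to 1535 CPM, a log2 ratio of −0.89 (−0.96 to −0.81). Timd4 went from 171 to 68.3 CPM, a ratio of −1.32 (−1.68 to −0.98), and Fcna from 698 to 254 CPM, a ratio of −1.46 (−1.63 to −1.28). These were the 3 largest differences of the set over all cells, but Fcna was at −0.25 without 7 ND cells described further on, closer to 0 than Stab1 and Folr2. It was at −0.80 when every cell had the same weight and at −0.62 in thinned cells. Timd4 in thinned cells was at −0.87.

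Stab1, Folr2 and Lyve1 were lower by less, with log2 ratios of −0.49 (−0.62 to −0.36), −0.40 (−0.51 to −0.29) and −0.28 (−0.41 to −0.15). Over the alternative ways of processing Stab1 lay between −0.56 and −0.39, Folr2 between −0.71 and −0.25 and Lyve1 between −0.42 and −0.11. Mrc1, at 0.02 (−0.07 to 0.11) and at −0.04 without the 7 ND cells, and Cd163, at 0.14 (−0.00086 to 0.29), had intervals that held 0. With mitochondrial, haemoglobin and ribosomal protein genes left out of the total neither interval held 0, and Mrc1 was at 0.12 (0.02 to 0.21) and Cd163 at 0.24 (0.10 to 0.39). Cbr2 was higher in the HFD library, at 0.22 (0.11 to 0.34), and Cd209f was at 0.19 (0.02 to 0.37), although the sign of Cd209f turned to −0.02 when cells over the mitochondrial limit were added. Of the 10 genes 2 (Timd4 and Fcna) were more than 2-fold lower, as were 5.14% of the 8166 genes with at least 20 UMIs, and the median of the 10 was −0.34 against −0.13 over all genes. Without the 7 ND cells neither was past this limit, with Timd4 at −0.94.

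**Figure D4:**
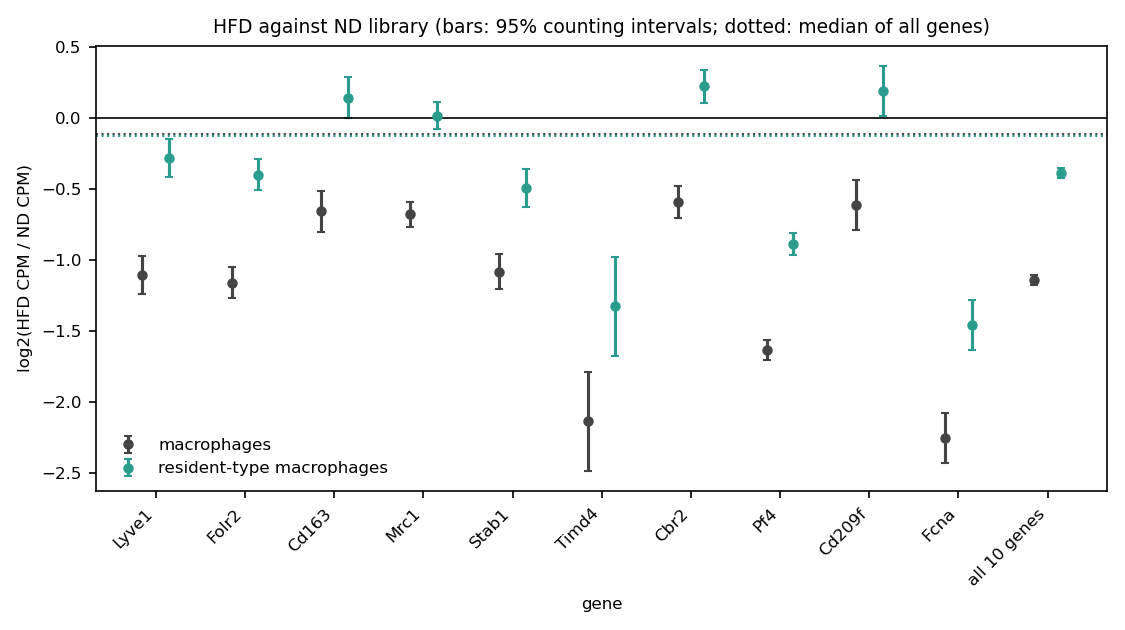
Log2 ratio of the HFD to the ND level for each gene and for the sum of all 10, over all macrophages (grey) and within resident-type macrophages (green), with exact 95% intervals for counting error and the median of all genes as dotted lines. All 10 genes lie below 0 over all macrophages. Within resident-type cells Mrc1 and Cd163 lie near 0 (at 0.12 and 0.24 without mitochondrial, haemoglobin and ribosomal UMIs). Cbr2 and Cd209f lie above 0 there (Cd209f at −0.02 without the mitochondrial limit). Pf4, Timd4, Fcna, Stab1, Folr2 and Lyve1 lie below 0 (Fcna at −0.25 and Timd4 at −0.94 without 7 ND cells).

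The resident-type cells of the libraries differed in more than these genes. Mitochondrial UMIs made up a median of 16.7% of their UMIs with ND and 23.1% with HFD, and their median depth was 4470 and 5326 UMIs. With mitochondrial, haemoglobin and ribosomal protein genes left out of the total, the log2 ratio of the 10 genes together moved from −0.39 to −0.29, and each gene moved by the same amount. The 4 haemoglobin genes summed to 1666 CPM in ND and 6220 CPM in HFD resident-type cells, led by Hbb-bs, with none at 0. The 7 markers of blood endothelium summed to 86.3 CPM in ND and 156 CPM in HFD resident-type cells, with Egfl7 and Cldn5 level at 23 UMIs each with ND, Cldn5 leading with HFD and none of the 7 at 0. Dendritic cell markers, led by Cd209a, summed to 57.0 and 127 CPM, with Xcr1 at 0 in both and Flt3 and Clec9a at 0 in the HFD library. The 4 monocyte markers summed to 178 and 270.0 CPM, led by Ifitm6 with ND and Plac8 with HFD, with none at 0. The 5 club cell markers summed to 215 and 0.677 CPM, led by Scgb1a1, with 4 of them at 0 in the HFD library. The 6 fibroblast markers, led by Dcn, summed to 117 and 73.1 CPM with none at 0. The 4 B cell markers, led by Cd79b, summed to 38.5 and 14.2 CPM with Ms4a1 at 0 in the HFD library, and the 4 neutrophil markers, led by S100a8, to 9.25 and 22.3 CPM with Retnlg and Cxcr2 at 0 in both. The 5 foam-type markers of the gate, led by Trem2, summed to 113 and 187 CPM with Gpnmb at 0 in the ND library. The part of these differences in the results was not tested.

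In foam-type macrophages the interval of the diet ratio was below 0 for Pf4 at −2.15 (−2.41 to −1.89), Stab1 at −0.79 (−1.22 to −0.34) and Cd163 at −1.65 (−3.05 to −0.10), and for Lyve1, which had 4 UMIs in all. Of the 10 genes 6 reached 20 UMIs, and 2 of those (Pf4 and Cd163) were more than 2-fold lower, against 7.74% of 7106 genes. The 7 ND UMIs of Cd163 lay in 3 cells, 4 of them in 1 cell, and without that cell it stood at 10.3 CPM in ND, against 7.59 CPM in HFD cells, less than 2-fold apart. Without the highest cell of both libraries the ratio of Cd163 was −1.07 (−3.07 to 1.46), that of Pf4 −1.83 (−2.14 to −1.52) and that of Stab1 −0.59 (−1.07 to −0.09). Folr2, Mrc1 and Cbr2 had intervals that held 0. With 46 ND foam-type cells, a difference of the size seen for Folr2 could not be told from 0 by counting alone. Of the 14 ND UMIs of Folr2 10 lay in 1 cell, against 12 of the 67 HFD UMIs. Neither the size nor the sign of the Folr2 difference is therefore secure.

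The foam-type cells of the libraries also differed in other genes. Their median depth was 4692 UMIs with ND and 8418 UMIs with HFD. The 4 haemoglobin genes, led by Hbb-bs, summed to 81.6 CPM in ND and 6119 CPM in HFD foam-type cells with none at 0. The 5 foam-type markers of the gate summed to 5217 and 11535 CPM, led by Mmp12 with ND and Spp1 with HFD, with none at 0. The 4 monocyte markers, led by Plac8, summed to 136 and 59.6 CPM with Ly6c2 at 0 in the ND library, and the 7 blood endothelial markers, led by Cldn5, to 44.2 and 120 CPM with Flt1 at 0 in the ND library. The 6 fibroblast markers, led by Dcn, summed to 95.2 and 28.7 CPM with Pdgfra at 0 in the ND library, and the 5 club cell markers, led by Scgb1a1, to 153 and 1.63 CPM with Cyp2f2 and Bpifb1 at 0 in the ND library and all but Scgb1a1 at 0 in the HFD library. The part of these differences in the foam-type ratios was not tested.

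The UMIs of Fcna were concentrated in few cells of the ND library. Of its 906 UMIs in 265 resident-type cells, 5 cells held more than all the others together, and 1 cell held 227, followed by 88 and 73. In the HFD library it took 24 of 262 cells to reach this, and the highest cell held 17 UMIs. The share of cells with a UMI was not lower in the HFD library, at 43.1% (37.1 to 49.4) against 38.1% (32.2 to 44.3), nor after each cell was thinned to 1000 UMIs, at 21.0% against 19.4%. By the same measure Pf4 took 61 ND and 50 HFD cells, and Timd4 took 18 and 19, although the highest Timd4 cell held 24 of 222 UMIs with ND and 5 of 101 with HFD.

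The 6 ND cells with most Fcna also carried UMIs of Marco, Cd5l or Vsig4, while the cell ranked 7 by Fcna had 0. The genes code for a scavenger receptor, a secreted scavenger protein and a complement receptor of macrophages in other organs. At least 10 UMIs of these 3 genes together were counted in 7 of 265 ND and in 0 of 262 HFD resident-type cells. Of the 7 ND cells 5 had Marco, 6 had Cd5l and 4 had Vsig4. Among foam-type cells 1 of 46 ND and 39 of 193 HFD cells reached this limit, nearly all of it from Cd5l, which stood at 1754 CPM in HFD foam-type cells and was one of their leading genes. This limit was set after the values were seen. The 7 cells held 537 of the 906 Fcna UMIs, 62 of the 222 Timd4 UMIs and 120 of the 952 Lyve1 UMIs, but 35 of the 1768 Mrc1, 20 of the 1044 Cbr2 and 15 of the 1023 Stab1 UMIs. They held 0 of the 2259 UMIs of Ccl8, a chemokine that 140 of the other 258 cells carried. Their median depth was 11628 UMIs, their median mitochondrial share 5.76%, and Clec4f, Siglecf and Chil3, which mark macrophages of the liver and the air spaces, had 0 UMIs in them. Gata6, which marks macrophages of the body cavities, had 1 UMI in each of 2 of the 7 cells (25.1 CPM), against 4 UMIs in 3 of the other 258 cells (3.28 CPM). Which tissue the 7 cells came from was not tested.

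Without the 7 cells Fcna stood at 303 CPM in the ND library, so that the log2 ratio went from −1.46 to −0.25 (−0.46 to −0.04), and that of Timd4 from −1.32 to −0.94 (−1.32 to −0.57). No member was then more than 2-fold lower within resident-type macrophages. Over all macrophages Fcna was then at −1.03 (−1.24 to −0.82), Timd4 at −1.73 (−2.11 to −1.37) and Lyve1 at −0.98 (−1.11 to −0.84), so that 5 of the 10 genes were more than 2-fold lower. Pf4 did not depend on them, with a ratio of −0.95 (−1.02 to −0.87). Leaving out the 10 highest cells of each gene in both libraries gave −0.38 (−0.62 to −0.14) for Fcna, −1.23 (−1.67 to −0.80) for Timd4 and −0.95 (−1.03 to −0.87) for Pf4.

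**Figure D5:**
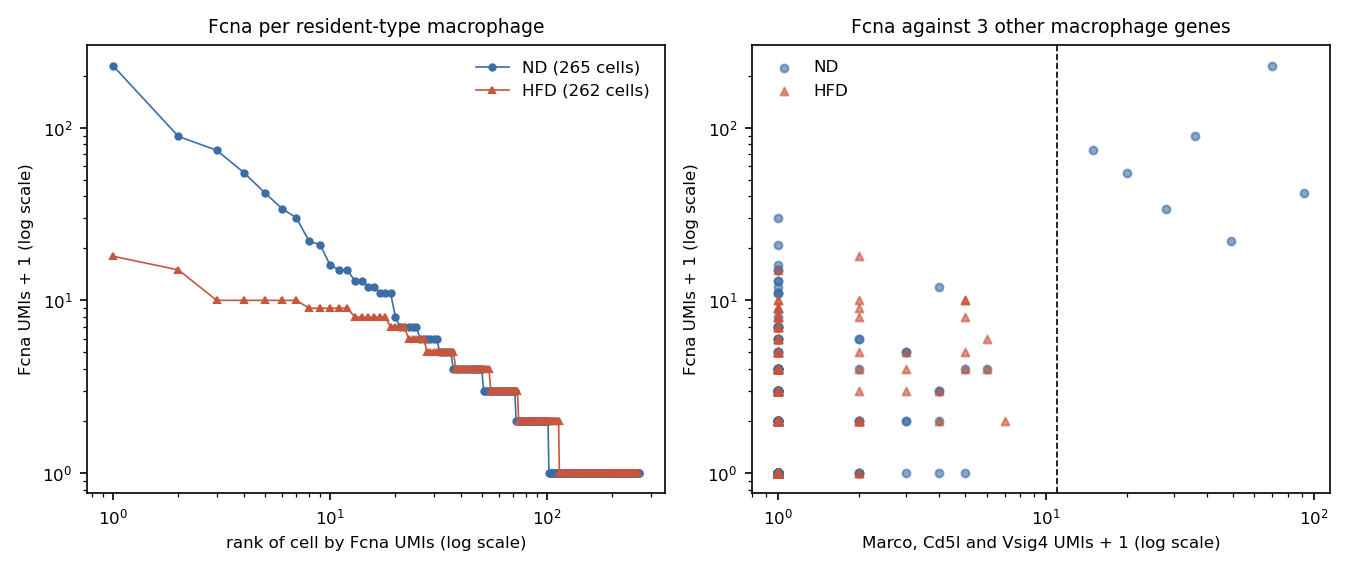
Left, Fcna UMIs + 1 in each resident-type macrophage, ranked from the highest, for 265 ND (blue) and 262 HFD (red) cells. Right, Fcna UMIs + 1 against the summed UMIs + 1 of Marco, Cd5l and Vsig4 in the same cells, with a dashed line at 10 UMIs, and all axes on a log scale. The highest ND cell held 227 UMIs and the highest HFD cell 17, and the 7 cells right of the line are all from the ND library and hold 537 of its 906 Fcna UMIs.

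Single cells carried the members in combination. Over all UMIs the median resident-type cell had 7 of the 10 genes in both libraries, 19 ND and 29 HFD cells had all 10, and the median foam-type cell had 1. After thinning to 1000 UMIs the median was 4 genes in resident-type and 0 in foam-type cells of either library, and 46.0% of ND and 41.6% of HFD resident-type cells had at least 5. No foam-type cell of the ND library and 0.518% of those of the HFD library did. Over all macrophages the median thinned count was 4 with ND and 1 with HFD.

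Within resident-type cells the pairs were only loosely related, as far as thinned counts can show. Over the 45 pairs Spearman's rho ranged from −0.02 (Stab1 with Cd209f) to 0.32 (Timd4 with Fcna) in 263 ND cells and from 0.03 (Cd163 with Mrc1) to 0.38 (Lyve1 with Folr2) in 262 HFD cells. Lyve1 and Folr2 were related in both, at 0.31 and 0.38. These values are across cells of 1 library, which share its depth and free RNA, and are given as a description.

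Among the genes whose counts went most with the number of members per thinned macrophage, ranked by the weaker of the libraries over 933 genes, were F13a1 (rho 0.54 in ND and 0.60 in HFD cells), Ly6e (0.50 and 0.50), C4b (0.49 and 0.59), Gas6, Selenop, Maf, Fcgrt, C1qa and Ednrb. C4b codes for a protein of the complement system, Selenop for a carrier of selenium and Maf for a transcription factor of macrophages. F13a1, Gas6, C1qa and Ednrb were gate markers. At the other end stood Rgs1 (−0.43 and −0.42), Cd52, Lgals3 (−0.31 and −0.59), Tmsb10, Mpeg1, Ctss, Cd300c2, Rpl39, Basp1 and Bcl2a1b. Lgals3 codes for a galectin and Ctss for a lysosomal protease.

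Other genes known from resident macrophages differed in both directions between the diets within resident-type cells, as the 10 did. Of 22 such genes that were counted, 5 were more than 2-fold lower and 2 more than 2-fold higher in HFD than in ND resident-type cells, against 5.14% and 2.29% of the 8166 genes, with a median log2 ratio of −0.21. Over all macrophages 8 of the 22 were more than 2-fold lower and 0 more than 2-fold higher in the HFD library, against 7.35% and 4.53% of all genes. In foam-type against resident-type cells 16 of 22 were more than 2-fold lower with ND and 12 of 21 with HFD, against 19.7% and 11.7% of all genes. Whether the 22 genes differ from the 10 was not tested. Ccl8 went from 1741 to 5228 CPM, a ratio of 1.59 (1.52 to 1.65), and Siglec1, a receptor of sialic acid, from 27.7 to 74.4 CPM. Ccl24, a chemokine for eosinophils, went from 289.8 to 63.6 CPM, a ratio of −2.19 (−2.53 to −1.86). Hpgd, Cx3cr1 and Vsig4 were the others that were lower by more than 2-fold with UMIs in both libraries, and Marco had 72 ND and 0 HFD UMIs, all 72 in the 7 cells described above. Those cells also held 72 of the 117 ND UMIs of Vsig4, which without them stood at 37.0 CPM in ND against 35.2 CPM in HFD cells. Cd209d, a relative of Cd209f, was also higher in HFD cells, at 0.93 (0.62 to 1.25). The transcription factor gene Maf was at −0.32 (−0.44 to −0.21).

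Partners of single members were counted to unequal depth. Of 8 genes that make, bind or cut hyaluronan 2 reached 20 UMIs in resident-type cells, and Cd44, the main other hyaluronan receptor, was at −0.72 (−0.95 to −0.50). Hmox1, which breaks down the haem that Cd163 brings in, was at 0.38 (0.25 to 0.50), and the ferritin genes Fth1 and Ftl1 at −0.05 (−0.09 to −0.0019) and 0.11 (0.07 to 0.15). Of 5 haem and iron genes with at least 20 UMIs 1 (Slc40a1) was more than 2-fold lower, against 5.14% of all genes. It went from 28 UMIs (21.6 CPM) in ND to 9 UMIs (6.09 CPM) in HFD resident-type cells. Folr1, another folate receptor, had 0 UMIs in resident-type cells, and Stab2, the relative of Stab1, had 0 there in both libraries and 3 ND and 18 HFD UMIs in foam-type cells. Cxcr3, a receptor of the Pf4 protein, had 4 ND and 8 HFD UMIs in resident-type cells. Of the foam-type genes outside the gate 3 of 12 (Fabp5, Abcg1 and Plin2) were more than 2-fold higher in HFD resident-type cells, against 2.29% of all genes, and 0 were more than 2-fold lower.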

How the data were processed

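The deposited files hold raw UMI counts per gene and barcode, made by the authors with Cell Ranger (3.0.1 in the matrix header) on mm10. The submitters' processing notes also name bcl2fastq, UMI-tools, Seurat 3.2.0 and R 4.0.0. With 1 library per diet no model was fitted. Counts were summed per library and class with Python 3.11.15, scipy 1.17.1 and scanpy 1.11.5. The ratio step was checked on simulated Poisson counts. These hold no spread between cells, so the check cannot show how the intervals fare with such spread. Levels carry exact Poisson, shares exact Clopper-Pearson and ratios exact conditional binomial intervals at 95%.

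A class needed at least 3 UMIs over at least 2 of its markers. A barcode positive for several classes took the top class only with at least 5 times the UMIs of the next, and was otherwise left out as mixed. Ratios were computed for genes with at least 20 UMIs in both groups together. Scrublet's own threshold marked 0 ND and 1 HFD cell, so it did not work here, and leaving out the 6% highest scores was an alternative. Thinning to 1000 UMIs left out 63 ND and 0 HFD cells. All 10 members were named, with listed pathway genes and the 10 genes most and least like them by Spearman's rho among genes in at least 10% of macrophages; a few of these are not reported here. Members, lists and gates were chosen with earlier results of these data known. The limit on Marco, Cd5l and Vsig4, and leaving out the highest cells, were chosen after seeing the data.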

Additional observations from a re-analysis of the deposited data

Results flagged for a closer look

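Barcodes over the mitochondrial limit, which enter the comparisons only where the limit was lifted as an alternative, also carried the 10 genes. Among 100 such ND barcodes gated as macrophages, with a median of 1269 UMIs, the genes summed to 2999.8 CPM (2767 to 3247), against 40.3 CPM in B cells over the limit. Among 441 such HFD barcodes, with a median of 2847 UMIs, they summed to 3204 CPM (3108 to 3302), against 23.6 CPM in B cells. They stand here because the signal lies in data outside the main comparisons and above the level in cells that should lack it. Mitochondrial genes made up a median of 48.1% and 44.3% of the UMIs of these macrophages. With mitochondrial UMIs left out of the total, the 10 genes summed to 5236 CPM in these ND and 5729 CPM in these HFD macrophages. B cells over the limit then had 62.5 CPM with ND and 46.7 CPM with HFD. By neither measure was the HFD sum the lower, whereas kept macrophages had 7268 CPM with ND and 3293 CPM with HFD. Those levels of kept macrophages count all UMIs. The reason for this difference was not tested.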

How the results depend on the processing

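Alternatives were run for 3 comparisons of the 10 genes, the diets over all macrophages, the diets within resident-type cells and foam-type against resident-type cells of the HFD library. The sum over the 10 genes kept its direction in these 3 under all alternatives that gave a value, and 29 of 60 alternative values of these sums, the resident-type shares and the Lyve1 ratios stayed within the counting interval. The log2 ratio of HFD to ND over macrophages (−1.14) was −4.17 with a mitochondrial limit of 10%, −1.06 with none, −1.10 without mitochondrial, haemoglobin and ribosomal UMIs, −0.90 with cells weighed equally, −0.87 in thinned cells and −1.09 without the 7 ND resident-type cells high in Marco, Cd5l and Vsig4. Within resident-type cells (−0.39) it was −0.43 without a mitochondrial limit, −0.29 without mitochondrial, haemoglobin and ribosomal UMIs, −0.34 with at least 4 subset UMIs, −0.26 without F13a1 in the list and −0.32 with the subset called by Lyve1 and Folr2. Without a mitochondrial limit Cd209f turned from 0.19 to −0.023. The ratio of HFD foam-type to resident-type cells (−3.92) was −3.78 without a mitochondrial limit, −4.02 without mitochondrial, haemoglobin and ribosomal UMIs, −3.78 with cells weighed equally, −4.11 with at least 4 subset UMIs and −3.49 by Lyve1 and Folr2.

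The resident-type share of ND macrophages (75.1%) was 63.8% without a mitochondrial limit, 66.0% with at least 4 subset UMIs, 62.6% without F13a1 and 57.5% by Lyve1 and Folr2. That of HFD macrophages (52.3%) was 46.1%, 45.7%, 39.3% and 36.7% in the same order. With a mitochondrial limit of 10% it was 0% of 24 HFD macrophages, so no resident-type comparison could be made. The ratio of Lyve1 in lymphatic to blood endothelium was 6.55 in ND cells and 6.04 with a 10% limit, 6.86 without the highest doublet scores, 6.91 with cells weighed equally and 6.95 in thinned cells. In HFD cells (8.50) it was 9.39 without a mitochondrial limit and 9.51 with a class gate of 5 UMIs. Without the highest cell of each library, an alternative chosen after seeing the data, Lyve1 in lymphatic endothelium was at 1037 CPM in ND and 489 CPM in HFD cells. The cause of these shifts was not tested. Where Lyve1 and Folr2 called the subset they were left out of the sum, which then held the other 8 genes. No paired analysis was possible because each diet had 1 library.

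The diets cannot be told apart from the pools and libraries, and HFD resident-type cells had the higher mitochondrial share. Genes with few UMIs in foam-type cells, such as Lyve1 and Timd4, have ratios whose size rests on 0 to 3 molecules, and the foam-type diet ratio of Cd163 rests on 7 ND UMIs. That of Folr2 rests on 14 ND UMIs, 10 of them in 1 cell. The level of Cd209f in HFD foam-type cells rests on 7 UMIs, 6 of them in 1 cell.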

Other observations

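Some members were counted in cells that no comparison used. Mrc1 stood at 57.6 CPM in 130 unassigned ND cells and at 172 CPM in 109 unassigned HFD cells. Stab1 was counted as 12 UMIs in neutrophils of each library, or 54.7 CPM in 85 ND and 167 CPM in 15 HFD cells. The ND UMIs lay in 7 of the 85 cells, and the HFD UMIs in 2 of the 15 cells, 7 of them in 1 cell. Cd163 was counted as 8 UMIs in 5 of 28 ND dendritic cells.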
